A study of Homo sapiens with 4 samples.

Results

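The NRF2 oxidative stress response was followed through 9 genes in RNA-seq of a human cell line labelled as HepG2, a line established from a liver tumor. The genes were taken by symbol from the 59050 genes of the deposited counts, and all 9 were found and passed the filter on low counts. There were 2 libraries of untreated cells (0 h) and 2 libraries of cells given doxorubicin at 1 ug/ml for 24 h, all grown in the same medium, with mRNA purified by its poly(A) tail. Since the untreated libraries are from 0 h, an effect of doxorubicin and one of 24 h in culture cannot be told apart. Doxorubicin is a DNA-damaging drug that the study used to induce p53, and the titles name the treated libraries by p53 and the untreated libraries by its absence. Because the treatment tag of the treated samples reads p53-miRNA, the groups were taken from the titles. In each pair of values below, replicate 1 comes first. Nothing in the labels says whether the replicates were separate cultures, so the p-values measure the spread between these libraries, which may be technical.

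NRF2, encoded by NFE2L2, is the transcription factor that controls much of the defence of a cell against oxidants and electrophiles. In unstressed cells KEAP1 holds NRF2 and hands it to a CUL3 ubiquitin ligase for destruction. Oxidants modify KEAP1, NRF2 accumulates, pairs with a small MAF protein and binds antioxidant response elements, where the repressor BACH1 competes with it. Its targets make glutathione (GCLC, GCLM), import the cystine needed for it (SLC7A11), reduce thioredoxin and peroxiredoxins (TXNRD1, SRXN1), break down heme (HMOX1) and restrain growth (OSGIN1). Doxorubicin is a quinone that can be cycled between redox states and form reactive oxygen species.

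The libraries held between 27572740 and 36272180 counts, and levels are given as CPM, the counts scaled to a library total of 1000000, in which 3 counts are worth between 0.0827 and 0.109. Untreated replicate 2 stood apart, lying outside the range of the other 3 libraries in 81.6% of the 17479 genes tested. It had 31258 genes with a count, against 25734 in untreated replicate 1 and 27609 and 27551 in the doxorubicin libraries. Markers of liver were nearly absent. ALB, the albumin gene, had at most 0.109 CPM, and HNF4A, a liver transcription factor, between 0.277 and 1.92 CPM. The 16 liver markers summed to 1.46 and 6.03 CPM in untreated cells and 17.3 and 20.7 CPM in treated cells, with between 6 and 10 of them at 3 counts or fewer in each library. FGG, a fibrinogen chain, made up most of the sum in treated cells (9.76 and 13.999 CPM). The 5 markers of simple epithelium summed to 5899 and 4752 CPM in untreated and 3527 and 3025 CPM in treated cells, nearly all of it from the keratins KRT8 and KRT18, while KRT19, EPCAM and CDH1 had at most 0.727 CPM. Squamous markers (7 genes, 1183 to 1951 CPM) rested on KRT17 and SFN, and KRT5, KRT6A, TP63 and DSG3 had at most 0.450 CPM. Mesenchymal markers (7 genes, 841 to 1189 CPM) rested mainly on VIM, and COL1A2 and THY1 had at most 0.579 CPM. In each library, between 0 and 2 of the simple epithelial, 0 and 4 of the squamous and 1 of the mesenchymal markers had 3 counts or fewer. Blood markers (6 genes) summed to at most 2.49 CPM. The part of these differences in the results was not tested. CDKN1A, the p53 target that encodes p21, had 380.1 and 866 CPM in untreated and 1003 and 880.3 CPM in treated cells. With all libraries, the log2 fold changes of the p53 targets CDKN1A, GDF15 and MDM2 were 0.44 (adjusted p = 0.800), 1.26 (adjusted p = 0.773) and 0.41 (adjusted p = 0.781), and none was called. Without untreated replicate 2, CDKN1A rose by 1.16 (adjusted p = 3.42e-05) and GDF15 by 2.01 (adjusted p = 3.22e-14), whereas MDM2 had 0.23 (adjusted p = 0.667).

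Sequences upstream of the genes were searched for the core of the antioxidant response element, to show where the DNA letters bound by NRF2 and its partners lie in these genes. Promoter windows of 300 bases (250 before and 50 after a start, RefSeq, GRCh38.p14) were at hand for 7 of the 9 genes, in 10 windows. HMOX1 and SLC7A11 were not matched. Either form of the core, TGACNNNGC or TGAGNNNGC on either strand, was found in 6 of the 10 windows (60%). It was found in 29.1% of all 35116 windows and in 31.6% of the windows of genes tested. Matches past the start were counted but are not shown. By gene, 5 of the 7 had a match. In the lists described below, 11 of 14 detoxification genes with a window had one, 3 of 5 for NADPH supply and 3 of 6 for glutathione and thioredoxin. There were 1 of 5 for heme and iron, 4 of 8 other antioxidant enzymes, 5 of 12 regulators and 3 of 10 ATF4 genes. These shares were not compared by a test. The 4 stretches below are written 5′ to 3′ on the strand of the gene with the match in capitals. They were chosen because the first 3 have nearly the same match, with tct before it and t after it. The last contains TGAGTCA, the motif of AP-1 factors. In all 4 the core reads on the opposite strand, as TGACTAAGC in GCLM and KEAP1, TGACAAAGC in TXNRD1 and TGAGTCAGC in OSGIN1.
GCLM (chr1:93909446-93909474, minus strand, 34 to 26 bases before the start): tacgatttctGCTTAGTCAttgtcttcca
KEAP1 (chr19:10502784-10502812, minus strand, 31 to 23 bases before the start): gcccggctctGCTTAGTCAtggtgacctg
TXNRD1 (chr12:104286920-104286948, plus strand, 102 to 94 bases before the start): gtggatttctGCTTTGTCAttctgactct
OSGIN1 (chr16:83953131-83953159, plus strand, 99 to 91 bases before the start): acgggcccctGCTGACTCAcgcttatgaa
The windows of GCLC and SRXN1 held 0 matches, as did the more upstream window of KEAP1 and that of NFE2L2. The stretches of KEAP1 and TXNRD1 come from the more downstream window of each gene. A match is a description of the letters, and no binding was measured here.

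All 9 genes had a positive log2 fold change in doxorubicin-treated over untreated cells, but 0 of the 9 were called by the edgeR quasi-likelihood test, which required an adjusted p-value under 0.05 and at least a 2-fold change. Of all genes 0% were called in either direction, the smallest adjusted p-value was 0.773, and 768 genes had an unadjusted p-value under 0.05. SLC7A11 and HMOX1 were 2 of these, against 2.66% of all genes that had such a p-value and a positive fold change and 1.73% that had a negative one. DESeq2 called 0 of the 9 genes (background 0.291% up and 0.272% down), and so did edgeR with a block on replicate number (0.0915% up and 0.0229% down). In 6 of the 9 genes both doxorubicin libraries lay above both untreated libraries, which was so for 30.3% of all genes, and the opposite held for 0 of the 9 against 11.5%. Both treated libraries exceeded untreated replicate 1 in 8 of the 9 genes (53.1% of all genes, and 24.7% for the opposite) and untreated replicate 2 in 7 (52.5% of all genes). In bulk libraries, fewer cells with a transcript and fewer copies per cell cannot be told apart. The median log2 fold change of the 9 genes was 0.62, beside 0.013 over all genes tested. Scaling by library size alone in place of TMM factors (trimmed mean of M values) shifted the median of all genes to 0.17 and that of the 9 genes to 0.78.

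The pattern depended on which untreated library stood for the control. Without untreated replicate 2, edgeR called 3 of the 9 genes as increased, HMOX1, SLC7A11 and OSGIN1, against 3.88% of the 18356 genes tested (0.556% were called as decreased). By the adjusted p-value alone SRXN1 joined them, which made 4 of the 9, against 4.61% of all genes that rose and 1.73% that fell. An unadjusted p-value under 0.05 with a rise was found for 6 of the 9, against 12.2%. Without untreated replicate 1, edgeR called NFE2L2, TXNRD1 and SLC7A11, against 21.2% of all genes called as increased and 23.2% as decreased. SLC7A11 was thus the gene called in both fits, which share the doxorubicin libraries. Without either doxorubicin library 0 of the 9 and 0% of all genes were called. In fits lacking a library, the lone library of its group is assumed to vary as the other pair does.

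**Figure D1:**
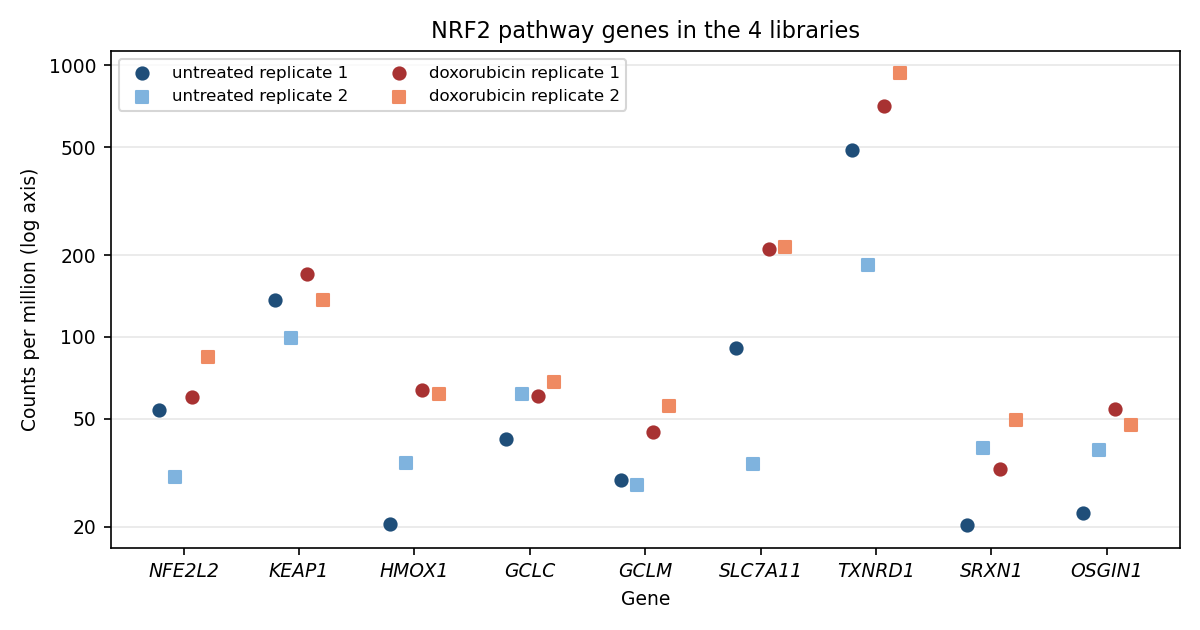
CPM of each gene (log axis) in the 4 libraries, with untreated libraries in blue and doxorubicin libraries in red or orange (circles replicate 1, squares replicate 2). SLC7A11 has 91.3 and 33.97 CPM in untreated cells and at least 210.0 CPM in treated cells, while KEAP1, GCLC and SRXN1 overlap between the groups.

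The sensor and its factor were called in neither direction with all libraries. NFE2L2 (chromosome 2, 177218667 to 177392756, GRCh38) had 53.9 and 30.4 CPM without treatment and 60.3 and 84.7 CPM with doxorubicin. Both treated libraries were higher, although doxorubicin replicate 1 exceeded untreated replicate 1 by 1.12-fold. The log2 fold change was 0.62 ± 0.42 (SE; adjusted p = 0.773). It was 0.28 without untreated replicate 2 (adjusted p = 0.569) and 1.16 without untreated replicate 1 (adjusted p = 2.26e-05), so that of these fits NFE2L2 was called only in the one against untreated replicate 2. KEAP1 (chromosome 19, 10486125 to 10503558) had 137 and 99.5 CPM in untreated cells and 171 and 137 CPM in treated cells. The groups overlapped, and the level in doxorubicin replicate 2 was 0.997 times that in untreated replicate 1. Its log2 fold change was 0.23 ± 0.34 (SE; adjusted p = 0.846), 0.022 ± 0.23 (SE) without untreated replicate 2, and 0.55 without untreated replicate 1 (adjusted p = 0.0371). In the fit without untreated replicate 2, its sign turned with DESeq2 (-0.016). NRF2 is regulated mainly through the stability of its protein, which RNA-seq does not measure.

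Of the genes for glutathione synthesis, the cystine transporter had the largest difference. SLC7A11 (chromosome 4, 138164097 to 138242349), the light chain of the cystine and glutamate exchanger, had 91.3 and 33.97 CPM without treatment and 210.0 and 214 CPM with doxorubicin. The treated libraries differed by 1.02-fold, and each was at least 2.30 times each untreated library. The log2 fold change was 1.60 ± 0.52 (SE; adjusted p = 0.773), the largest of the 9 genes, and 2.72% of all genes tested had a larger value (11.4% without untreated replicate 2). It was 1.07 without untreated replicate 2 (adjusted p = 0.000478) and 2.56 without untreated replicate 1 (adjusted p = 2.44e-20). SLC3A2, the heavy chain of the same exchanger, had 1232 and 1776 CPM in untreated cells and 1495 and 1198 CPM in treated cells, which gave a log2 fold change of -0.31 (adjusted p = 0.802), and -0.015 without untreated replicate 2 (adjusted p = 0.978).

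The enzyme that joins glutamate and cysteine, the rate-limiting step of glutathione synthesis, has a catalytic subunit (GCLC) and a modifier subunit (GCLM). GCLM (chromosome 1, 93885199 to 93909456) had 29.6 and 28.6 CPM in untreated cells and 44.5 and 55.5 CPM in treated cells. It was the gene whose untreated replicates lay closest, and both treated libraries were at least 1.504 times both of them. Its log2 fold change was 0.62 ± 0.35 (SE; adjusted p = 0.773), 0.61 without untreated replicate 2 (adjusted p = 0.137) and 0.72 without untreated replicate 1 (adjusted p = 0.0103). GCLC (chromosome 6, 53497341 to 53616970) had 42.0 and 61.6 CPM in untreated cells and 60.4 and 68.2 CPM in treated cells. Untreated replicate 2 lay between the treated libraries, and the log2 fold change was 0.15 ± 0.36 (SE; adjusted p = 0.901). It was 0.47 without untreated replicate 2 (adjusted p = 0.279), and its sign turned without untreated replicate 1 (-0.024, adjusted p = 0.941). There were 1.42 and 2.16 counts on GCLC for each count on GCLM in the untreated libraries, against 1.36 and 1.23 with doxorubicin.

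HMOX1 (chromosome 22, 35380361 to 35394214) encodes heme oxygenase 1, which opens the heme ring and releases iron, carbon monoxide and biliverdin. It had 20.5 and 34.3 CPM without treatment and 63.6 and 61.6 CPM with doxorubicin. Doxorubicin replicate 2 was 0.968 times replicate 1, and both were at least 1.796 times either untreated library. The log2 fold change was 1.04 ± 0.40 (SE; adjusted p = 0.773). Without untreated replicate 2 it was 1.47, a 2.76-fold rise (SE of the log2 value 0.26, adjusted p = 3.67e-06), the largest of the 9 genes in that fit. Against untreated replicate 2 alone it was 0.78 (adjusted p = 0.00439), under the fold threshold.

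Among the thioredoxin genes, TXNRD1 had higher levels in both treated libraries, and SRXN1 overlapped between the groups. TXNRD1 (chromosome 12, 104215779 to 104350307), the cytosolic thioredoxin reductase, had 487 and 183 CPM without treatment and 708 and 934 CPM with doxorubicin. Both treated libraries were at least 1.45 times both untreated libraries, while the untreated libraries themselves differed by more than that. Its log2 fold change was 1.13 ± 0.50 (SE; adjusted p = 0.773). It was 0.60 without untreated replicate 2 (adjusted p = 0.0750) and 2.07 without untreated replicate 1 (adjusted p = 1.53e-15). SRXN1 (chromosome 20, 646615 to 653200), sulfiredoxin, which repairs overoxidized peroxiredoxins, had 20.3 and 39.0 CPM in untreated cells and 32.7 and 49.6 CPM in treated cells. Untreated replicate 2 exceeded doxorubicin replicate 1, and the log2 fold change was 0.31 ± 0.47 (SE; adjusted p = 0.845). SRXN1 had 0.87 without untreated replicate 2 (adjusted p = 0.0215) and -0.015 without untreated replicate 1.

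OSGIN1 (chromosome 16, 83931311 to 83966332), oxidative stress induced growth inhibitor 1, had 22.6 and 38.4 CPM without treatment and 54.2 and 47.2 CPM with doxorubicin. The groups did not overlap, and the smallest ratio of a treated to an untreated library was 1.23. Its log2 fold change was 0.58 ± 0.42 (SE; adjusted p = 0.773). Without untreated replicate 2 it was 1.02 ± 0.26 (SE; adjusted p = 0.00352), where DESeq2 gave 0.99, just under the threshold, and without untreated replicate 1 it was 0.32.

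**Figure D2:**
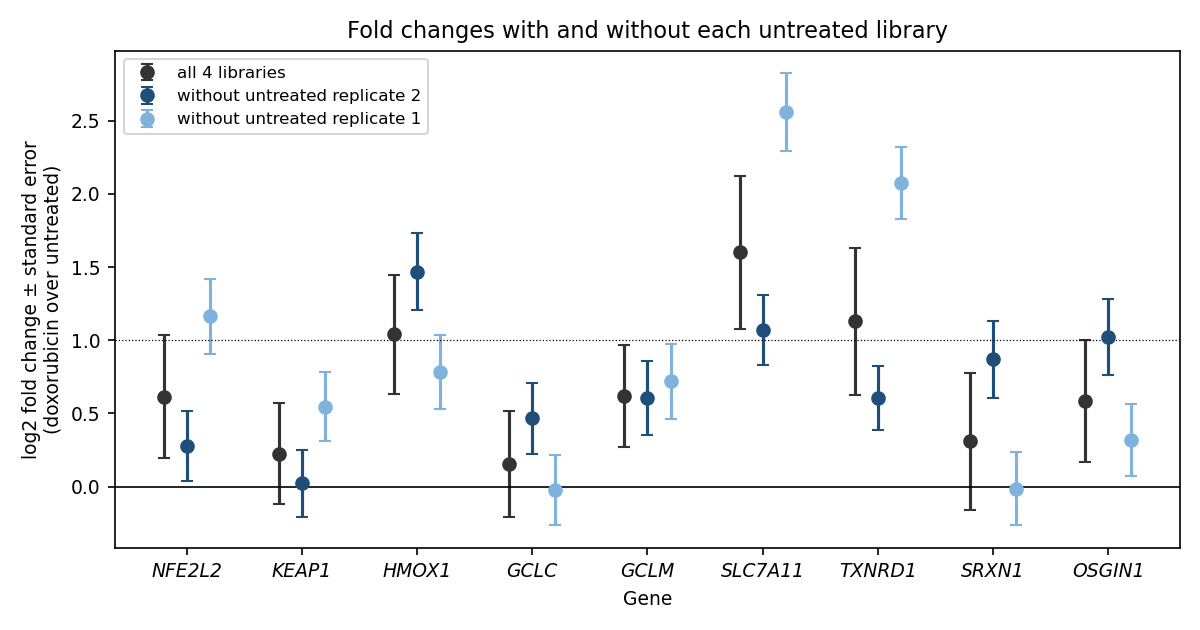
Log2 fold change of doxorubicin over untreated cells (edgeR, with standard errors) for each gene in all 4 libraries, without untreated replicate 2 and without untreated replicate 1; the dotted line is the fold threshold. HMOX1, OSGIN1, SRXN1 and GCLC are higher without untreated replicate 2, SLC7A11, TXNRD1, NFE2L2 and KEAP1 are higher without untreated replicate 1, and GCLM hardly moves.

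The 9 genes differed in which untreated library was the lower. Untreated replicate 2 was below untreated replicate 1 in SLC7A11 (0.372-fold), TXNRD1 (0.377-fold), NFE2L2 (0.564-fold) and KEAP1 (0.725-fold). It was above it in SRXN1 (1.93-fold), OSGIN1 (1.70-fold), HMOX1 (1.68-fold) and GCLC (1.47-fold), and GCLM was nearly equal (0.965-fold). Untreated replicate 2 was the lowest of the 4 libraries in 5 of the 9 genes and the highest in 0, while over all genes it was the lowest in 45% and the highest in 36.6%. The doxorubicin replicates lay between 0.800-fold and 1.52-fold of each other in the 9 genes.

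Transcript length moved with the difference between the untreated libraries. The median log2 difference of untreated replicate 2 from replicate 1 over protein-coding genes was 0.34 for the 2671 genes with a canonical transcript under 2 kb, -0.07 at 2 to 4 kb (4193 genes), -0.48 at 4 to 6 kb (2501 genes) and -0.86 at 6 kb or more (2179 genes). Between the doxorubicin libraries the same medians ran from -0.07 to 0.19. The share of genes lower in untreated replicate 2 was 35.5% under 2 kb, 52.4% at 2 to 4 kb and 76.7% at 6 kb or more. The canonical transcripts of HMOX1 and OSGIN1 have 1554 and 1922 bases and that of SLC7A11 9645. At 2 to 4 kb lie NFE2L2 (2446 bases), KEAP1 (2565 bases) and TXNRD1 (3860 bases), which were lower in untreated replicate 2. SRXN1 (2528 bases) and GCLC (3785 bases), which were higher in it, lie there too. GCLM, nearly equal in both, has 4883 bases. The part of transcript length in these results was not tested.

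**Figure D3:**
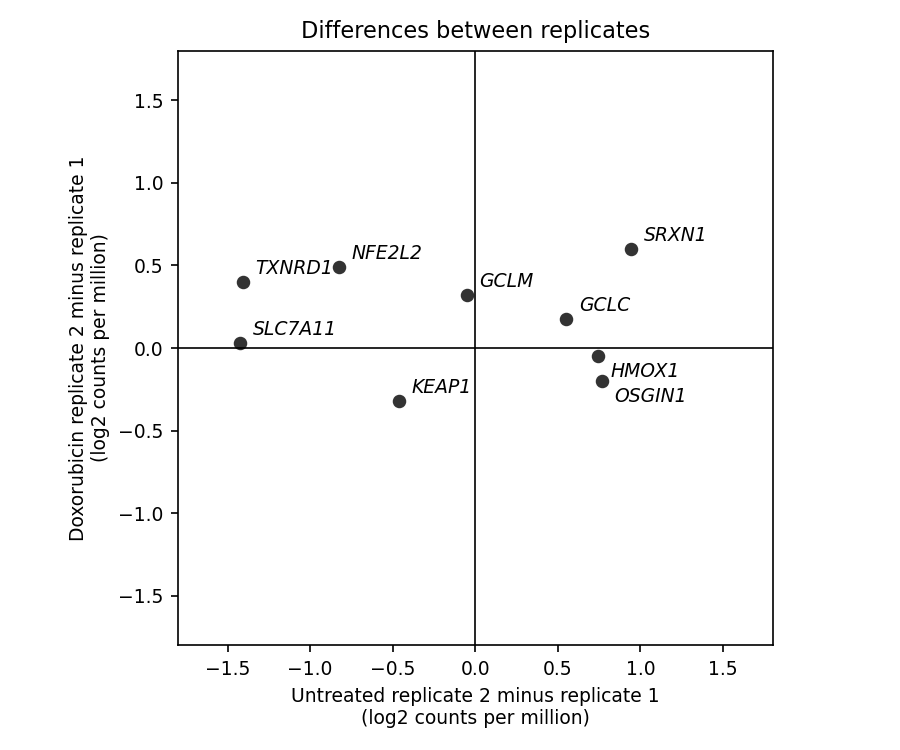
Log2 difference between the untreated replicates (x axis) and between the doxorubicin replicates (y axis) for each gene, on equal axes. The genes spread from -1.43 to 0.95 along the untreated axis, and TXNRD1 and SLC7A11 lie at its left end.

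Levels were compared between genes as RPKM, the CPM divided by the exon length in kb (exons of the basic transcripts of GENCODE release 44). TXNRD1 was highest in 3 of 4 libraries, with 95.0 and 35.8 RPKM in untreated cells and 138 and 182 RPKM in treated cells, and KEAP1 was next, with between 35.97 and 61.8 RPKM. In untreated replicate 2 both had nearly the same level. HMOX1 was the third in every library (13.2 to 40.9 RPKM). OSGIN1, SRXN1, SLC7A11, GCLC and GCLM followed, with geometric means between 7.75 and 15.2 RPKM and ranges that overlap, so that their order is not resolved. NFE2L2 had the lowest level (geometric mean 4.43 RPKM), but this rests on 12142 bases of exon from many transcripts, and with the canonical transcript alone it was the fourth (22.0 RPKM). With canonical lengths TXNRD1 was the highest in all 4 libraries (47.5 against 38.8 RPKM for KEAP1 in untreated replicate 2), and NFE2L2 was above HMOX1 in untreated replicate 1 (22.0 against 13.2 RPKM). Summed over the 9 genes, the level was 904 and 549 CPM in untreated cells and 1404 and 1652 CPM in treated cells, of which TXNRD1 took between 33.4% and 56.5%.

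The partners of NRF2 were examined as a list of 14 regulators, of which 13 were tested. None was called with 4 libraries, with 7 above and 6 below 0 and a median log2 fold change of 0.06, and 1, BACH1, had an unadjusted p-value under 0.05. The median was 0.26 without untreated replicate 2, when 2 of the 13, BACH1 and MAFF, were called as increased, against 3.88% of all genes. BACH1, the repressor that shares binding sites with NRF2, had 31.3 and 25.0 CPM in untreated cells and 64.4 and 87.3 CPM in treated cells. The groups did not overlap, and the log2 fold change was 1.27 ± 0.36 (SE; adjusted p = 0.773), and 1.13 without untreated replicate 2 (adjusted p = 0.000586). Of the small MAF partners, MAFK had 90.5 and 83.4 CPM in untreated and 154.6 and 150.04 CPM in treated cells (log2 fold change 0.65, adjusted p = 0.773). MAFF had 22.2 and 146 CPM in untreated and 67.8 and 75.2 CPM in treated cells, so that its log2 fold change was -0.39 with all libraries and 1.54 without untreated replicate 2 (adjusted p = 6.61e-07). MAFG had -0.22 and 0.44 with and without that library. CUL3, the scaffold of the ligase that KEAP1 serves, likewise had 0.34 and -0.14. SQSTM1, the autophagy adaptor p62, which binds KEAP1, had 963 and 1810 CPM in untreated and 1721 and 1502 CPM in treated cells, which gave a log2 fold change of 0.06, and 0.60 without untreated replicate 2 (adjusted p = 0.0738). NFE2L1, a relative of NRF2, had -1.17 with all libraries (adjusted p = 0.773) and 0.23 without untreated replicate 2.

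Other NRF2 targets lay on both sides of 0. Of 42 other targets in 4 lists, 39 were tested and 0 called, with 17 above and 22 below 0 and a median log2 fold change of -0.15, and without untreated replicate 2 the median was -0.00080 and 3 of the 39 (AKR1C1, AKR1C2 and FTH1) were called as increased, against 3.88% of all genes in that fit. A difference from the 9 genes was not tested. Among the 16 tested detoxification genes 8 were above and 8 below 0 (median -0.046), and without untreated replicate 2, 12 were above 0 (median 0.21). AKR1C1, an aldo-keto reductase, had 4.74 and 1.97 CPM without treatment and 31.9 and 29.2 CPM with doxorubicin. Both treated libraries stood far above both untreated libraries, with a log2 fold change of 3.01 ± 0.57 (SE; adjusted p = 0.773) and 2.54 without untreated replicate 2 (adjusted p = 2.77e-13). AKR1C2 had 2.65 and 0.970 CPM in untreated and 11.6 and 9.21 CPM in treated cells, which gave a log2 fold change of 2.34 ± 0.64 (SE), and 1.83 without untreated replicate 2 (adjusted p = 2.74e-05). Since these genes are near-identical, the division of reads between them is uncertain. Their promoter windows share the same 29-base stretch around a match, shown once for both.
AKR1C1 (chr10:4963364-4963392, plus strand) and AKR1C2 (chr10:5003884-5003912, minus strand): caggggcgttGCCAGCTCAttgctcttat
GSTA4, a glutathione transferase, had a log2 fold change of 1.89 ± 0.79 (SE) on at most 1.05 CPM. NQO1, a quinone reductase and well-known NRF2 target, was chosen for mention with its values known. It had 170.4 and 268 CPM in untreated and 204 and 210.5 CPM in treated cells, with a log2 fold change of -0.23 ± 0.34 (SE; adjusted p = 0.840). Its sign turned without untreated replicate 2, to 0.14 ± 0.22 (SE; adjusted p = 0.798).

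The genes of NADPH supply had 1 of 6 values above 0 and a median of -0.33, and 0 were called. When untreated replicate 2 was left out, 0 of the 6 were above 0 (median -0.31). PGD, a dehydrogenase of the pentose phosphate pathway, had a log2 fold change of -0.85 ± 0.40 (SE; adjusted p = 0.773), and the transketolase TKT -0.41 ± 0.30 (SE; adjusted p = 0.773). Without untreated replicate 2 the values of PGD and TKT were -0.30 and -0.64, and TKT passed the adjusted p-value (0.0365) but not the fold threshold.

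Of the 11 tested glutathione and thioredoxin targets, 5 were above and 6 below 0 (median -0.20, 0 called), and without untreated replicate 2, 2 were above 0 (median -0.083). PRDX6, a peroxiredoxin, had 456 and 675 CPM in untreated and 331 and 337 CPM in treated cells, which gave a log2 fold change of -0.92 ± 0.31 (SE; adjusted p = 0.773). ABCC3, an exporter of conjugates, had 0.66 ± 0.32 (SE), and PRDX1, a further peroxiredoxin, -0.56 ± 0.35 (SE). The values of PRDX6, ABCC3 and PRDX1 were -0.60, 0.51 and -0.093 without untreated replicate 2. Of the 6 heme and iron targets 3 were above 0 (median 0.15, 0 called), and without untreated replicate 2, 5 were above 0 (median 0.26). FTH1, the ferritin heavy chain that stores the iron heme breakdown sets free, had 2512 and 3828 CPM in untreated and 5966 and 6106 CPM in treated cells. Its groups did not overlap, with a log2 fold change of 0.77 ± 0.30 (SE; adjusted p = 0.773) and 1.12 without untreated replicate 2 (adjusted p = 3.91e-05). BLVRA, a biliverdin reductase, had 0.53 ± 0.40 (SE) and the heme transporter SLC48A1 0.32 ± 0.35 (SE), and without that library 0.20 and 0.47.

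**Figure D4:**
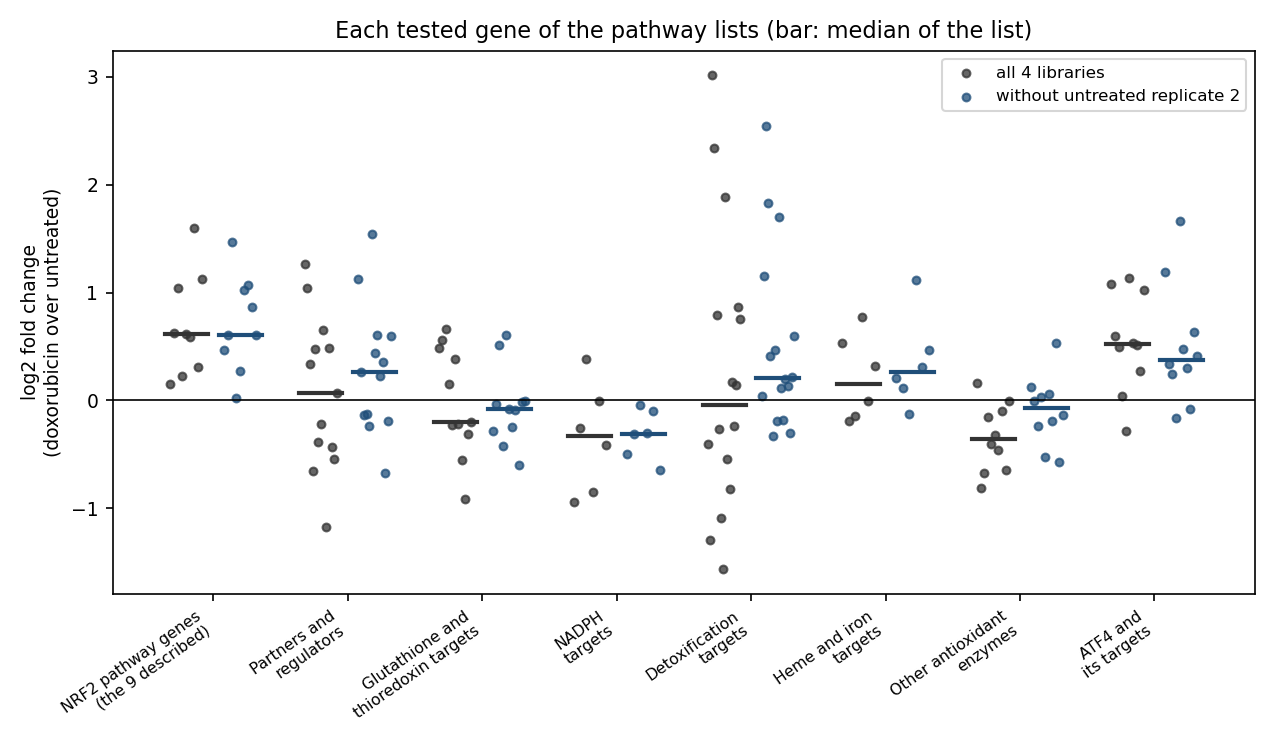
Log2 fold change of every tested gene of each list with all 4 libraries (black) and without untreated replicate 2 (blue), with a bar at the median of the list. The 9 genes lie above 0 with both, the detoxification genes spread from -1.56 to 3.01 with all libraries, and the NADPH genes lie mostly below 0.

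Antioxidant enzymes outside the NRF2 lists had 1 of 10 genes above 0 and a median of -0.36, with 0 called, and without untreated replicate 2 they had 4 above 0 and a median of -0.066. TXN2, the mitochondrial thioredoxin, and the glutathione peroxidases GPX4 and GPX1 had -0.64, -0.67 and -0.81 (SE 0.34, 0.37 and 0.47), and -0.57, -0.24 and -0.0011 without untreated replicate 2. SLC7A11 is also a target of ATF4, the factor of the integrated stress response, so ATF4 and 9 of its targets were listed. Of these 10 genes 9 were above 0 (median 0.52, 0 called), and 8 were above 0 without untreated replicate 2 (median 0.38), when 2 of the 10, ASNS and DDIT3, were called as increased, against 3.88% of all genes. ATF4 itself had 467 and 309 CPM in untreated and 655 and 656 CPM in treated cells, which gave a log2 fold change of 0.60 ± 0.32 (SE; adjusted p = 0.773), and 0.34 without untreated replicate 2. ASNS, asparagine synthetase, had 1.08 ± 0.49 (SE) and TRIB3, a pseudokinase, 1.03 ± 0.60 (SE), and without that library they had 1.19 and 0.41. DDIT3, which encodes CHOP, had 20.4 and 136 CPM in untreated and 67.6 and 75.1 CPM in treated cells, and its log2 fold change was -0.29 with all libraries and 1.66 without untreated replicate 2 (adjusted p = 6.50e-08).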

How the data were processed

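The 4 libraries were grouped by their titles, 2 untreated and 2 doxorubicin. Per the methods, low-quality reads were removed (FastQC, Cutadapt), HISAT2 aligned the rest to hg38 and HTSeq counted them per gene. The counts were deposited by the authors as whole numbers without normalization, under a header that names GENCODE release 31. The layout of that header looks like the output of featureCounts, another counting tool, so the tool used is not certain. Tool versions and the use of strand are not given in the sources used here, so reads of overlapping or antisense genes cannot be told apart.

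CPM was computed as the count divided by the library total, times 1000000. Tests used edgeR 4.0.16 in R 4.3.3: filterByExpr, TMM, glmQLFit (legacy=FALSE) and glmQLFTest, with a prior count of 0.125 and Benjamini-Hochberg adjustment over all 17479 genes kept. A gene was called at an adjusted p-value under 0.05 with a change of 2-fold or more. The SE of a log2 fold change is its size over the square root of F. The scripts were tested on simulated data. Positions and lengths came from GENCODE release 44 (GRCh38), and promoters from RefSeq. Alternatives were DESeq2 1.42.0, the edgeR exact test, RLE factors, library size alone, no filter, a filter of 1 CPM in 2 libraries, a replicate block, a prior count of 2 and fits lacking a library. Depth was 27572740 to 36272180 counts, and the floor of 3 counts covers counting error only.

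The genes named are the 9 genes, CDKN1A, MDM2, GDF15, ALB, HNF4A, BACH1, MAFF, MAFG, MAFK, CUL3 and SQSTM1, the 3 genes of each other pathway list with the smallest p-value, of which 1 is not reported here, and the 3 nearest in pattern to HMOX1, GCLM and SLC7A11. SLC3A2, NQO1, DDIT3 and the single marker genes other than ALB and HNF4A, the promoter stretches printed and the comparison by transcript length were chosen after their values were seen. All members and lists were chosen with earlier results of these data known.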

Additional observations from a re-analysis of the deposited data

How the results depend on the processing

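With all 4 libraries 0 genes were called, as with RLE factors, library size alone, either other filter, or without either doxorubicin library. DESeq2 called 89 genes, the edgeR exact test 46, and the fit with a replicate block 20. Fits lacking a library called between 0 and 8697 genes, the latter without untreated replicate 1, and 815 without untreated replicate 2. Of the 9 genes, 0 were called in any fit with all libraries, the replicate block included, and between 0 and 3 with a library left out. The other pathway genes tested were 13 regulators, 39 other NRF2 targets, 10 antioxidant enzymes and 10 ATF4 genes. Of these, DESeq2 called 1 (AKR1C1), the exact test 1, the replicate block 0, and fits lacking a library between 0 and 32. The 32 were called without untreated replicate 1, where 21.2% of all genes were called as increased and 23.2% as decreased. A difference from this background was not tested. In the fit without untreated replicate 2, 7 were called, against 3.88% of all genes as increased and 0.556% as decreased. In that fit library size alone called 4 of the 9 genes (SRXN1 added) and DESeq2 called 2, where OSGIN1 had a log2 fold change of 0.99. The median log2 fold change of the 9 genes lay between 0.54 and 0.77 with a library left out, and was 0.62 with the replicate block. GCLC (-0.024 to 0.47) and SRXN1 (-0.015 to 0.87) changed sign, both without untreated replicate 1. The cause of these changes was not tested. The replicate numbers are shared between groups, and the main fit assumed no pairing. Over the genes tested the correlation of deviations for equal numbers was 0.0219. This value cannot exclude a pairing, because the untreated libraries differed far more than the doxorubicin libraries (median absolute log2 difference 0.89 against 0.25). With 2 libraries per group the untreated pair widened the spread (biological coefficient of variation 0.486, and 0.151 without untreated replicate 2).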

Other observations

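Genes whose CPM pattern over the 4 libraries was most like that of a member were looked up among 14175 other genes with a mean of at least 1 CPM and a count in every library, by the Euclidean distance of log2 CPM centred on its mean. For SLC7A11 these were GBP2 (distance 0.104), an interferon-induced GTPase, PTK6 (0.153), a tyrosine kinase, and SLC22A15 (0.157), a transporter of organic ions. In all, 10 genes lay within 0.2 of SLC7A11. GBP2 had low levels, with 1.43 and 0.485 CPM in untreated and 3.21 and 3.16 CPM in treated cells. PTK6 had 16.02 and 6.75 CPM in untreated and 37.1 and 41.0 CPM in treated cells. For GCLM they were the transcription factor gene ETS1 (0.0544), ZNF841 (0.0579) and PARP9 (0.0663), and 87 genes lay within 0.2 of it. ETS1 had 29.9 and 27.6 CPM in untreated and 44.7 and 56.1 CPM in treated cells. For HMOX1 they were AC008443.5, AL355512.1 and SLC22A18, at distances of 0.105, 0.121 and 0.136, and 5 genes lay within 0.2 of it. AC008443.5 and SLC22A18 had low levels, between 0.496 and 1.87 CPM. With 4 libraries such likeness is a description, and nothing about shared function follows from it.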
